A study of Mus musculus with 9 samples.

Results

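Very long genes, taken here as protein-coding genes whose body spans 250000 bp or more, hold most of their length in introns, so that the mature mRNA is a small fraction of the body. The m6A peaks described here are those with a summit in a body of that length and in no other protein-coding gene. They numbered 1195 of the 22531 peaks in wild-type replicate 1 and 185 of the 5040 peaks in wild-type replicate 2. The rule used only the place of the summit and the length of the gene, and no measured height. Both peak lists come from m6A-RIP-seq, in which fragments carrying N6-methyladenosine are enriched with an antibody from oligo-dT-selected mRNA and sequenced, of wild-type mouse embryonic stem cells (mESCs), which grow as undifferentiated colonies in medium with LIF. The labels give the shared background of all cells as Rosa26:CRE, Bir ligase, and the libraries of Mettl3 and Zc3h13 knockout cells (2 immunoprecipitations per genotype) and the inputs (1 per genotype) were not analysed here. The labels call the 2 samples replicates but do not say that they came from separate cultures, and the names that replicate 1 gives its peaks do not mention wild-type cells, with no explanation in the sources used here. Peak lists hold no expression values and no read totals, so the labelled cell type could not be checked against marker genes, the depth of each library is unknown, and a gene without a peak may be unmethylated or too little expressed, which cannot be told apart.

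N6-methyladenosine is laid on mRNA in the nucleus by the Mettl3 and Mettl14 heterodimer, which works together with a second complex of Wtap, Virma, Hakai, Rbm15 and Zc3h13. In mammalian mRNAs the mark is known to gather around stop codons, in long internal exons and in the 3′ untranslated region, and reader proteins that bind it affect splicing, export, translation and decay. In embryonic stem cells the mark is known for limiting the lifetime of pluripotency transcripts.

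A few of these peaks lay on or near annotated transcription starts, and the sequences are shown because each has a peak at the same place in both replicates. Of 825 RefSeq start windows of 300 bases in 550 very long genes, 38 windows in 36 genes overlapped a peak of replicate 1, and 3 of them overlapped a peak in both replicates. The windows below run from 120 bases before the start to the first 30 transcribed bases, 5′ to 3′ on the strand of the gene, with the transcribed bases in capitals. They are RefSeq sequence of GRCm38.p6, on the plus strand at chr12:78226535-78226684 for Gphn, chr8:120488746-120488895 for Gse1 and chr8:127063936-127064085 for Pard3.
Gphn: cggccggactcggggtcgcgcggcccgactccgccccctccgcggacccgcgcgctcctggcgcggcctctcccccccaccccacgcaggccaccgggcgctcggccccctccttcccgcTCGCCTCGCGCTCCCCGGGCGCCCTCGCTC
Gse1: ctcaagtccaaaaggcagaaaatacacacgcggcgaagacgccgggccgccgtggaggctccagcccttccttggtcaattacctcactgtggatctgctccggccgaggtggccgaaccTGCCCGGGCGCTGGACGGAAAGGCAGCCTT
Pard3: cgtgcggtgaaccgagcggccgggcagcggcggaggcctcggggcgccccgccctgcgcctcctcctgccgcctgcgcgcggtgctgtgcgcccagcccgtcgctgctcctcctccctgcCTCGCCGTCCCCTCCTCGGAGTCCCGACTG
The tetramer GGAC, the core of the commonest m6A consensus, was searched on the transcribed strand of the capitals only; it occurred once in Gse1 and not in Gphn or Pard3, and 11.2% of 32851 windows of all genes held it in the same 30 bases. The summits of all 3 genes lay outside these 30 bases, so the search does not cover the sequence at the summits. The lower-case bases, where Gphn also holds the tetramer, were not searched. A match is no measured site.

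In Gphn, which encodes gephyrin, the scaffold of inhibitory synapses, the summits lay 289 bp before that start in replicate 1 and 292 bp before it in replicate 2, with fold enrichments over input of 14.8 and 12.5 in that order. This Gphn start lies 9330 bp into the body, and the replicate 2 peak ended before it. The Gse1 start is also an internal one, 260365 bp into the body of this chromatin-associated coiled-coil gene. Its summits lay 107 and 103 bp before the start and reached 8.77-fold enrichment in replicate 1 and 9.53-fold in replicate 2. In Pard3, a gene of cell polarity, the summits lay 76 and 74 bp after the start, at 8.77-fold in replicate 1 and 7.57-fold in replicate 2. In each of these 3 genes the summits of the 2 replicates thus lay within a few bases of each other. The summits of Gphn and Gse1 fell upstream of the annotated start of the transcript, a place outside that transcript as annotated.

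To see how far very long genes carry the mark, genes with a summit were counted. Of the 722 very long genes, 340 (47.1%, 95% exact binomial interval 43.4 to 50.8) had a summit in replicate 1, against 37.1% of all 21900 protein-coding genes. In replicate 2 there were 104 (14.4%, 11.9 to 17.2), against 14.8%. Both replicates held a summit in 102 very long genes (14.1%, 11.7 to 16.9), against 14.1% of all protein-coding genes. The excess of replicate 1 over the background was therefore not seen in replicate 2 or in the genes common to both. All intervals cover counting error only. Very long genes made up 3.30% of protein-coding genes and 34.7% of their summed body length, and they took 6.34% of the summits placed in a single coding gene in replicate 1 and 4.07% in replicate 2. Another 102 summits of replicate 1 and 18 of replicate 2 lay in a very long body that overlaps a second coding gene and were left out, and 77 and 11 of those kept also lay in a lncRNA gene, in replicates 1 and 2.

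The share of genes with a summit in both replicates was 14.1% at 250000 bp or more, 21.0% from 100000 to 250000 bp, 18.0% from 50000 to 100000 bp, 16.3% from 10000 to 50000 bp and 8.91% below 10000 bp. The interval of the very long genes, 11.7 to 16.9, lay below that of the 100000 to 250000 bp class, 19.1 to 23.0, and overlapped those of the next 2 classes, 16.6 to 19.6 and 15.5 to 17.1. Among genes with a summit in replicate 1, the mean number of summits was 3.51, 3.19, 2.70, 2.17 and 1.62 from the longest class to the shortest.

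**Figure D1:**
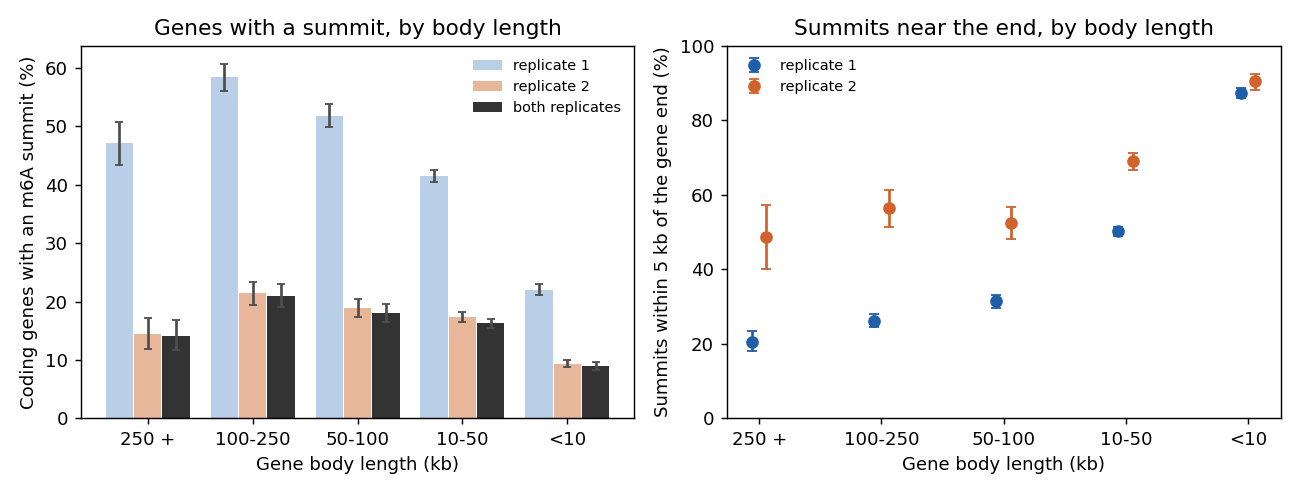
Left, percentage of protein-coding genes with an m6A summit (y axis) by gene body length in kb (x axis), in replicate 1, replicate 2 and both; right, percentage of summits within 5 kb of the gene end, for genes of known strand; error bars are 95% exact binomial intervals. The very long genes stand at the left of each panel, at 14.1% in both replicates, and at 20.6% of summits near the end in replicate 1 and 48.6% in replicate 2. In these genes an even spread would give 1.31% and 1.29%, and 5 kb is a larger part of a shorter body.

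The number of summits per gene was uneven. In replicate 1, 117 of the 340 genes had 1 summit, 61 had 2, 99 had 3 to 5, 42 had 6 to 9 and 21 had 10 or more. Cacna1a, which encodes the pore-forming subunit of a neuronal calcium channel, had 19, the highest number. In replicate 2, 60 of 104 genes had 1 summit, 24 had 2, 18 had 3 to 5 and 2 had more, up to the 7 of Zfhx3, a homeodomain and zinc-finger transcription factor. Replicate 1 had more summits in 87 of the 102 genes common to both, replicate 2 had more in 1 gene, and the numbers were equal in 14. Neighbouring summits of a gene were a median of 9415 bp apart in replicate 1 and 2118 bp in replicate 2. Joining summits within 1000 bp left 1077 separate regions in replicate 1 and 160 in replicate 2, so most summits stood as separate regions.

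The strand, needed to tell the start of a gene from its end, was known for 550 of the 722 genes, which held 909 summits of replicate 1 in 256 genes and 140 of replicate 2 in 78 genes. The last 10% of the body held 431 summits in replicate 1 (47.4%, 44.1 to 50.7) and 102 in replicate 2 (72.9%, 64.7 to 80.0). The first 10% held 85 (9.35%) and 12 (8.57%), close to the 10% of an even spread. The median summit lay 87.4% of the way along the body in replicate 1 and 98.5% in replicate 2, or 55002 bp and 5554 bp before the gene end. A summit within 10000 bp of the end was 28.4% of those of replicate 1 and 57.1% of those of replicate 2, where an even spread would give 2.63% and 2.57%. Within 10000 bp of the start the shares were 6.49% and 7.14%. Within 1000 bp of the start lay 3.19% and 2.14% (3 summits), against 0.263% and 0.258% for an even spread. The last 1000 bp held 2.31% and 7.86%. Both replicates thus had their summits gathered mainly at the transcript end, more so in the shorter list, with a smaller excess near the start. In replicate 1, however, the first 1000 bp held more summits (29) than the last 1000 bp (21). These libraries were made from mRNA and the annotation used here gives no exons, so methylation and the position of exons along the body cannot be told apart. The last 10% of the body held 47.4% of summits of replicate 1 in the very long genes and 40.6%, 36.5%, 31.0% and 11.7% in the successively shorter classes. A window of 10% grows with the gene, and the share within a fixed 5000 bp of the end ran the other way, at 20.6%, 26.2%, 31.4%, 50.2% and 87.4% from the longest class to the shortest. A fixed 5000 bp is in turn a larger part of a shorter body. An even spread would give 1.31% in the very long genes of replicate 1 and was not computed for the other classes, so these shares do not compare the gathering between classes.

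**Figure D2:**
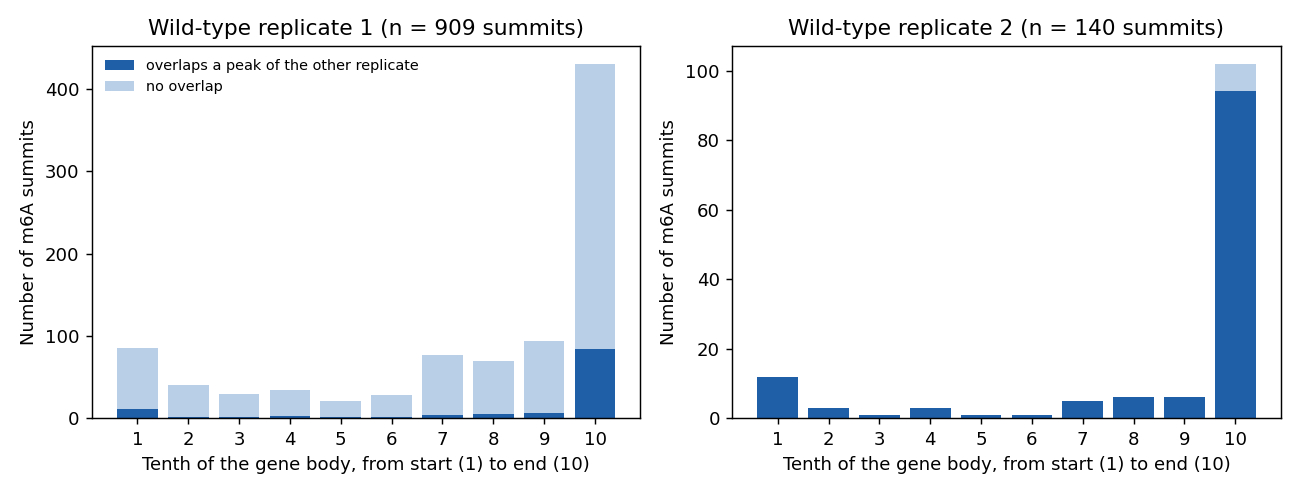
Number of m6A summits (y axis) in each 10% step of the body of very long genes, from start (1) to end (10) (x axis), in replicate 1 (909 summits) and replicate 2 (140 summits); dark bars are peaks that overlap a peak of the other replicate, light bars those that do not. The last step holds 431 summits of replicate 1 and 102 of replicate 2.

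Overlap between replicates was uneven, as were the list lengths. Of the 185 peaks of replicate 2, 175 shared 1 bp or more with a replicate 1 peak (94.6%, 90.3 to 97.4), against 91.9% in other coding genes. Of the 1195 peaks of replicate 1, 157 overlapped one of replicate 2 (13.1%, 11.3 to 15.2), against 21.1% (20.5 to 21.7) in other coding genes. The summits of the 175 overlapping pairs were a median of 14 bp apart, and 137 pairs (78.3%) were within 100 bp. The pairs were chosen for overlapping, which limits this distance, and the farthest pair was 1687 bp apart. Of the 102 genes common to both, 98 had such a pair. When only the 5040 replicate 1 peaks with the highest −log10 q (q being the false discovery rate that MACS2 gives a peak) were kept, 58.9% of replicate 2 peaks and 44.3% of the remaining replicate 1 peaks overlapped.

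The overlap along the body differed between the lists. In replicate 1, 65 of the 258 peaks in the last 10000 bp were shared (25.2%, 20.0 to 31.0), 9 of 59 in the first 10000 bp (15.3%, 7.22 to 27.0) and 44 of the 592 between (7.43%, 5.45 to 9.85). In replicate 2 the shared peaks were 72 of 80 in the last 10000 bp (interval of the share 81.2% to 95.6%), 10 of 10 in the first 10000 bp and 50 of 50 between, so all of its unshared peaks with known strand lay in the last zone. In replicate 1 the median −log10 q was 32.5, 20.8 and 20.9 in the last, first and middle zones, so the zone with more shared peaks also had the higher values. Among peaks at or above the median −log10 q of 23.0, 39.7% (32.0 to 47.9) in the last 10000 bp and 17.1% (13.0 to 21.8) elsewhere were shared. Within these stronger peaks the median −log10 q was again higher in the last 10000 bp, 60.6 against 46.6 elsewhere. Below the median the shares were 2.94% (0.611 to 8.36) and 0.568% (0.0689 to 2.04), with overlapping intervals. The part of peak strength in the difference by position was not tested. The order of fold enrichment was another one, with medians of 5.51, 7.45 and 6.52 in the last, first and middle zones of replicate 1.

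**Figure D3:**
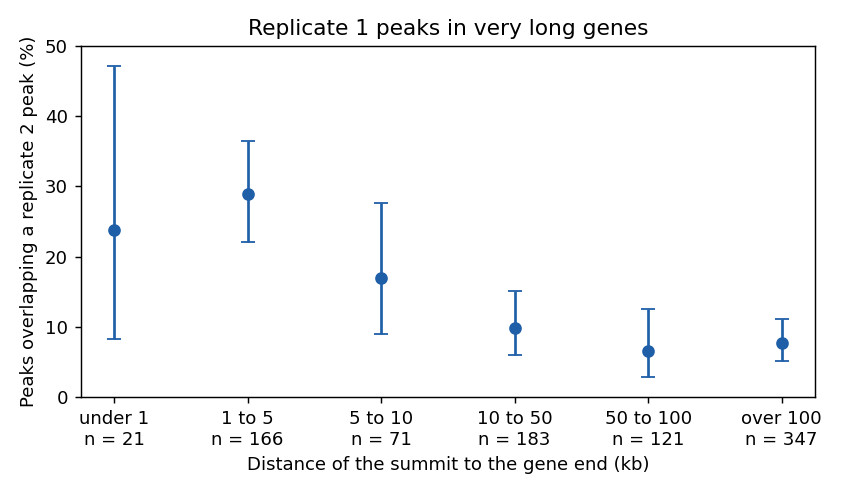
Percentage of replicate 1 peaks in very long genes that overlap a replicate 2 peak (y axis) by distance of the summit to the gene end in kb (x axis), with 95% exact binomial intervals and the number of peaks under each class. The share was 28.9% from 1 to 5 kb and 7.78% beyond 100 kb.

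Fold enrichment over input had a median of 6.48 in the very long genes of replicate 1 (interval of the median 6.33 to 6.64, range 1.58 to 45.8), against 5.04 (4.98 to 5.11) in other coding genes. In replicate 2 the medians were 6.59 (6.18 to 7.02) and 6.28 (6.20 to 6.39), whose intervals overlap. The median −log10 q ran the other way in replicate 1, at 22.5 (20.8 to 23.9) against 31.9 (31.2 to 32.6), and in replicate 2 it was 6.84 (6.43 to 8.03) against 7.55 (7.32 to 7.73), within overlapping intervals. Peaks of very long genes were narrower in replicate 1, with a median width of 392 bp (379 to 406) against 454 bp (448 to 461), while the widths of replicate 2, 406 bp (387 to 463) against 451 bp (441 to 458), had overlapping intervals. Across the length classes of replicate 1, median fold enrichment was 6.48, 5.75, 5.19, 4.74 and 4.87 from the longest to the shortest. MACS2 computes fold enrichment against local input, and the input level of each gene was not part of the lists, so its part in these values was not tested.

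Genes were next ranked by their highest peak in each replicate, which need not be the same peak. Tenm4, a teneurin, which is a large transmembrane protein that joins neighbouring cells, reached 23.4-fold enrichment in replicate 1 and 19.6-fold in replicate 2. Those peaks, at chr7:96873429-96873920 and chr7:96873997-96874456 of mm10, are neighbours about 94.9% along a body of 739850 bp, and both sites were called in both lists. Tenm4 had 11 summits in replicate 1 and 5 in replicate 2. All 5 overlapped a peak of replicate 1, where 4 of the 11 peaks were shared. Its relative Tenm3 spans 1297160 bp and had 15 and 5 summits, with highest fold enrichments of 13.1 and 15.7 in replicates 1 and 2. The 15 summits of Tenm3 lay from 85.2% to 99.8% along the body. Cdh4, encoding R-cadherin, had 4 summits in replicate 1 and 2 in replicate 2, with highest fold enrichments of 18.4 and 16.3 at one site near an end of the body.

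Prkce, encoding a protein kinase C isoform, had peaks at both ends of its 490135 bp body. At the low end the peaks were chr17:86167664-86168788 in replicate 1 (fold enrichment 22.6) and chr17:86168229-86168815 in replicate 2 (7.44). At the high end they were chr17:86654409-86656153 in replicate 1 (8.82) and chr17:86655223-86656174 in replicate 2 (17.1). The stronger end therefore differed between the replicates, and the strand of Prkce was not known here. Btbd11, a gene with BTB and ankyrin repeats, showed the same: its peak 0.9% along the body had 16.2 in replicate 1 and 5.81 in replicate 2, and its peak 99.9% along had 3.48 in replicate 1 and 17.3 in replicate 2. Between them replicate 1 had 11 further summits of Btbd11 that replicate 2 lacked, at fold enrichments of 5.70 to 9.01.

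Prdm16, a zinc-finger regulator of cell fate, had 11 summits in replicate 1 and 6 in replicate 2, in groups at both ends. Its highest peak in replicate 1, at chr4:154340805-154342249 and 92.0% along the body, had a fold enrichment of 28.6, and the overlapping peak of replicate 2 had 5.63. Nhs, which encodes a regulator of the actin cytoskeleton, had 2 summits in each replicate, at 97.4% and 98.8% along the body. At 98.8% the enrichment was 16.5-fold in replicate 1 and 13.2-fold in replicate 2. Zbtb7c, a zinc-finger repressor, had 6 and 5 summits with highest values of 14.7 and 12.9, and all 5 of replicate 2 overlapped replicate 1. Ldlrad4, an inhibitor of TGF-beta signalling, had 5 and 3 summits, with highest values of 15.0 and 12.0 at different sites. The highest peak of replicate 1 overlapped a peak of replicate 2 in 51 of the 102 genes, while the highest of replicate 2 overlapped one of replicate 1 in 98.

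**Figure D4:**
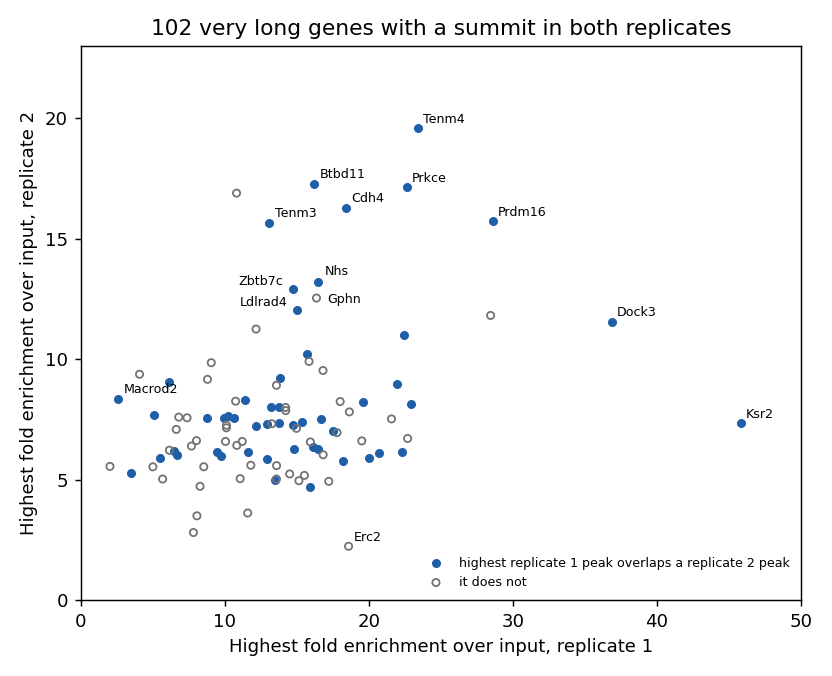
Highest fold enrichment over input of each of the 102 very long genes with a summit in both replicates, replicate 1 (x axis) against replicate 2 (y axis); filled points are genes whose highest replicate 1 peak overlaps a replicate 2 peak (51 genes). Tenm4 lies high in both at 23.4 and 19.6, while Ksr2 has 45.8 in replicate 1 and 7.35 in replicate 2.

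The genes with the most summits included Zfhx3, Gse1, Dst, Snx29 and Cacna1a besides those above. Zfhx3 had 8 summits in replicate 1 and 7 in replicate 2. All 7 overlapped replicate 1, where 4 of the 8 peaks were shared because several replicate 2 peaks fell in the same replicate 1 peak. Of the 7 in replicate 2, 6 lay between 98.0% and 99.3% along the body and 1 at 76.3%, where both replicates had an 11.6-fold enrichment. The highest peak of Zfhx3 in replicate 1, at chr8:108722098-108722902 with 28.5, had no overlapping peak in replicate 2. Gse1 had 18 and 5 summits, of which 3 of replicate 2 overlapped replicate 1. Dst encodes dystonin, a spectraplakin that links cytoskeletal filaments, and its 3 summits of replicate 2 lay 67.9%, 68.4% and 68.7% along the body, inside a run of replicate 1 summits from 62.9% to 73.5%. No Dst summit lay in the last 10% of the body in either replicate. Snx29, a sorting nexin, had 5 and 4 summits: 2 of each lay 99.1% and 99.3% along, 3 of replicate 1 lay between 17.1% and 18.5%, and 2 of replicate 2 at 99.7% had no partner. In Cacna1a, 4 of the 19 summits of replicate 1 overlapped all 4 of replicate 2, the highest of these at 9.43 in replicate 1 and 9.91 in replicate 2.

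**Figure D5:**
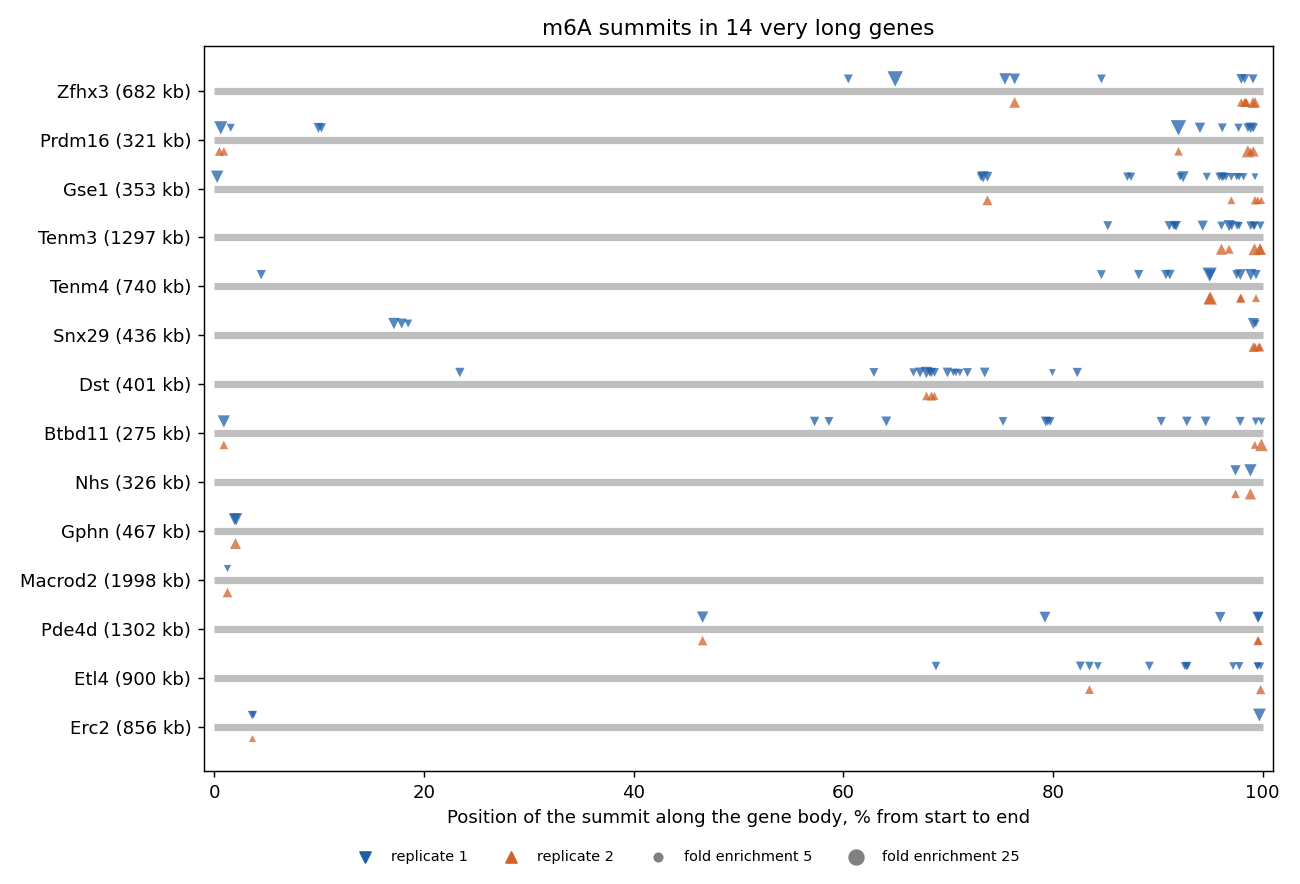
Position of each m6A summit along the gene body, in percent from start to end (x axis), in 14 very long genes of known strand (rows, body length in kb); replicate 1 above the grey body in blue, replicate 2 below it in orange, symbol size growing with fold enrichment over input. Most replicate 2 summits stand at the right, with Dst (67.9% to 68.7%), Macrod2 (1.2%) and Gphn (1.9%) among the exceptions.

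The 10 longest genes with a summit in both replicates ran from 688602 bp in Ptprg to 1997664 bp in Macrod2. Macrod2, an ADP-ribosyl hydrolase gene, had 1 summit in each replicate, 24873 bp from the start in replicate 2 and 1972790 bp from the end; its peak had 2.63-fold enrichment in replicate 1 and 8.37-fold in replicate 2. Pde4d, a cAMP phosphodiesterase gene, shared 1 peak 46.6% along its 1301793 bp body (13.8-fold in replicate 1 and lower in replicate 2) and 2 at 99.6%, the first of them 12.5-fold in replicate 1 and 7.36-fold in replicate 2. Erc2, a gene of the presynaptic active zone, shared a peak 3.6% along, at 5.26 in replicate 1 and 2.24 in replicate 2, while its highest peak in replicate 1, of 18.6 at 99.7%, was absent from replicate 2. In Etl4 2 of 13 replicate 1 summits were shared, and in Ptprg, a receptor tyrosine phosphatase gene, 2 of 4 were, at 80.8% and 87.2%. Auts2, a gene of transcriptional activation and neural development, had 12 and 2 summits, Arhgap26, a RhoGAP gene, 16 and 1. Wwox, an oxidoreductase gene at a fragile site, was in both lists with no common peak: its 13 summits of replicate 1 lay 34246 to 416934 bp from the low end of a 913078 bp body, and the 1 summit of replicate 2 lay 438 bp from the high end. These 10 genes thus differed in where they carried summits, and the part of length in this was not tested.

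Peaks common to both replicates and more than 10000 bp from either end were fewer. Of 76 common genes with known strand, 53 (69.7%) had a shared peak in the last 10000 bp, and 37 had shared peaks nowhere else. A shared peak in the first 10000 bp was found in 9 genes and one between the 2 zones in 30, of which 15 had shared peaks only there. The 50 replicate 2 peaks between the zones all overlapped replicate 1, and 1 of them lay within 1000 bp of an annotated start. They included the Dock3 peak of chr9:107192996-107193524 (11.6 in replicate 2, 36.9 in replicate 1), 38639 bp from the nearest annotated start of this Rac activator, and a Kif16b peak of chr2:142700071-142700787 (8.95 in replicate 2, 21.9 in replicate 1) in a kinesin gene.

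Nearest to the start, with a summit in both replicates, were Sgms1 (365 bp in replicate 1, 368 bp in replicate 2), Ksr2 (406 and 401 bp), Pard3 (751 and 749 bp), Tmem178b (1349 bp in both) and Fmn2 (1437 and 1433 bp). The Ksr2 peak, in a scaffold gene of Ras signalling, had the highest fold enrichment of all 1195 peaks of replicate 1, 45.8, and 7.35 in replicate 2. That of Fmn2, an actin-nucleating formin, had 22.9 in replicate 1 and 2.96 in replicate 2. Nearest to the end were Btbd11 (297 and 299 bp), Sox6 (324 and 317 bp), Mad1l1 (328 and 340 bp), Pitpnc1 (563 and 566 bp) and Ank2 (710 and 686 bp). In Mad1l1, a spindle checkpoint gene, that peak had 2.12 in replicate 1 and 6.22 in replicate 2, and in Pitpnc1, a phosphatidylinositol transfer gene, 2.58 and 5.60. In Sox6, a transcription factor gene, it had 9.49 and 6.16, and in Ank2, encoding ankyrin-B, 6.65 and 8.26. Without adjustment for depth, all 5 start peaks were higher in replicate 1, and 4 of the 5 end peaks were higher in replicate 2.

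The 10 peaks of replicate 2 without a partner came from Ascc3, Gmds, Ext1, Snx29 (2), Gnaq, Uvrag, Wwox and Gse1 (2). Each lay within 5193 bp of an end of its gene body, with fold enrichments of 3.08 to 11.3. Ascc3 and Gmds were the 2 genes found in replicate 2 only. Of the 238 genes found in replicate 1 only, Camta1 (44.3) and Kcnh1 (38.9) had the highest peaks, and they are named here after their values were seen.

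By role, the very long genes fell into lists that covered 343 of the 722. For comparison, 47.1% of all very long genes had a summit in replicate 1 and 14.1% in both. Of 53 transcription and chromatin regulators, 30 had a summit in replicate 1 (56.6%) and 13 in both (24.5%, 13.8 to 38.3), among them Auts2, Prdm16 and Zfp521. Of 57 genes of cytoskeleton, extracellular matrix and traffic, 35 (61.4%) and 12 (21.1%, 11.4 to 33.9) did, among them Dst, Syne1, Nav1 and Nav2. Of 69 intracellular signalling genes, 34 (49.3%) and 11 (15.9%, 8.24 to 26.7) did, led by Pde4d, Prkce and Plce1. Of 11 receptor tyrosine phosphatases and kinases, 5 and 2 (Ptprg and Igf1r) did. Of 61 synaptic receptors, channels and scaffolds, 20 (32.8%) had a summit in replicate 1 and 2 (3.28%, 0.400 to 11.3), Grik4 and Cacna1a, in both. Of 44 cell adhesion genes 9 (20.5%) and 4 (9.09%, 2.53 to 21.7) did, the 4 being Tenm3, Tenm4, Cdh4 and Dscaml1. Of 23 genes of axon guidance and growth, 9 had one in replicate 1, including Robo1 and Slit2, and 0 in both, which allows a share of up to 14.8%. Of 10 genes listed as RNA-binding, 6 had one in replicate 1 and 0 in both; 1 of the 6, Exoc4, encodes a subunit of the exocyst rather than an RNA-binding protein. Of 21 genes listed for common fragile sites, not all of which are established as such, 10 and 5 did, Wwox and Macrod2 among the 5. For summits in both replicates, the interval of the synaptic list lies below the 14.1% of all very long genes, and those of the other lists given contain it. Gphn, placed in the cytoskeleton list, and Erc2, in no list, also have synaptic roles and had summits in both replicates. The synaptic share therefore depends on how genes were placed in lists. In replicate 1 the intervals of the cell adhesion list (9.80 to 35.3) and the synaptic list (21.3 to 46.0) lie below 47.1%. That of the cytoskeleton list (47.6 to 74.0) lies just above it, and those of the other lists contain it. The cytoskeleton list holds genes of other roles, such as Gphn, and how far its place depends on this was not tested. How far expression in these cells sets these shares was not tested.

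Very long bodies held 65 annotated miRNA hairpins on either strand, and a summit lay within 3000 bp of 8 of them in replicate 1 and 1 in replicate 2. That one, Mir7211, sits antisense in Tmcc3, 541 bp from a summit of fold enrichment 16.5 in replicate 1 and 592 bp from one of 6.28 in replicate 2. The Mir23b, Mir27b, Mir3074-1 (antisense) and Mir24-1 hairpins in Aopep, counted singly among the 8, lay 1191 to 1915 bp from 1 unshared replicate 1 summit of 2.59. The same share for hairpins in other genes was not computed, so these counts cannot be set against a background.

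At the length that defines the group, the 5 genes just above it with a summit were Arhgap32 (251819 bp), Apba2, Kcnj6, Cers6 and Nav1 (253771 bp), with 5, 2, 1, 1 and 12 summits in replicate 1 and 0, 0, 0, 0 and 2 in replicate 2. The 5 just below were Rgl1 (249547 bp), St7, Dnah8, Pdss2 and Ssh2 (244064 bp), with 3, 2, 3, 7 and 7 summits in replicate 1 and 0, 0, 0, 2 and 0 in replicate 2. The numbers on the 2 sides of the limit overlapped.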

How the data were processed

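m6A-RIP-seq peak lists of 2 wild-type immunoprecipitations were used; each file belongs to 1 sample. Per the submitters' processing notes, reads were handled with MACS2, Bowtie and SAMtools on mm10; their versions are not given in the sources used here. Peaks were called by the authors for each immunoprecipitation against input with MACS2 defaults, without pooling. The labels list only 1 wild-type input for the 2 immunoprecipitations, and the part of a common input in the overlap of the lists was not tested. The deposited columns are positions, a score (not used), the ratio of immunoprecipitate to input (fold enrichment), −log10 p and −log10 q, as MACS2 gave them. No read counts come with the lists, so depth is unknown and nothing was adjusted for it.

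Summits were placed in the bodies of 21900 protein-coding RefSeq genes of GRCm38.p6, the assembly of mm10. Strand came from RefSeq start windows, which covered 550 of 722 very long genes. Shared means an overlap of at least 1 bp with any peak of the other replicate. Shares have exact (Clopper-Pearson) and medians order-statistic 95% intervals; the even spread is the covered share of the bodies that hold the summits. With 1 group and peaks that are not replicates, no test was run. On simulated intervals, placing and overlap matched an exhaustive comparison.

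Genes named are the 10 with the most summits and the 10 with the highest fold enrichment (by the lower of the 2 replicates), the 10 longest in both replicates, 5 on each side of the length limit, 5 nearest to each end, and list examples, 1 of which is not reported here; Dock3, Kif16b, Camta1, Kcnh1, the peaks of replicate 2 without a partner and the miRNA hosts were added after their values were seen. The members and the 9 lists of genes were chosen with earlier results of these data known. Alternatives are given in the closing section. Software was scipy 1.17.1, numpy 2.4.6 and pandas 2.3.3, with matplotlib 3.10.9 for plots, under Python 3.11.15.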

Additional observations from a re-analysis of the deposited data

How the results depend on the processing

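Other settings were tried for 9 values: the genes in both replicates and, for each replicate, the shared share, the shares near an end and in the last 10% of the body, and the median fold enrichment; the length classes, zones, role lists and comparisons with other coding genes were not rerun. No such value has a sign to change, and 46 of 73 recomputed values stayed in their band. The band was the 95% interval of the main value, or 1.5-fold for the gene count. Some could not move, such as the replicate 2 position shares and median when only the replicate 1 list was shortened. Within its band, the count of 102 genes fell to 83 at a −log10 q of at least 5, 95 above a fold of 4 and 75 with the shortened list. The shares in the last 10% of the body were recomputed as alternatives chosen after seeing the data. At a −log10 q of at least 5, 97.8% of replicate 2 peaks and 10.4% of replicate 1 peaks were shared, and the replicate 2 median fold enrichment was 7.30. Above a minimum fold enrichment of 4, 79.3% of replicate 2 peaks were shared, and replicate 1 had 31.4% of summits within 10000 bp of an end, 43.3% in the last 10% and a median of 7.25. With the replicate 1 list shortened to 5040 peaks, the shared shares were 58.9% for replicate 2 and 44.3% for replicate 1, and replicate 1 had 48.1% near an end, 61.7% in the last 10% and a median of 9.03. With bodies of 200000 bp or more, 165 genes were in both and the replicate 1 median was 6.26. With 500000 bp or more, 22 genes were, 27.1% and 53.3% of summits lay near an end in replicates 1 and 2, 55.3% of replicate 1 lay in the last 10%, and the replicate 2 median was 7.26. Overlap of 50% of both peaks left 52.4% and 8.12% shared in replicates 2 and 1, and summits within 100 bp left 74.1% in replicate 2. Within 1000 bp of an end lay 6.28% and 13.0% of summits in replicates 1 and 2, against 34.6% and 65.4% within 10000 bp, and within 5% of the body length 45.4% and 76.2%. Leaving out 1 replicate in turn gave 104 to 340 genes in place of 102. The order of the replicate medians (6.48 and 6.59) turned above the minimum fold of 4 (7.25 and 6.70) and with the shortened list (9.03 and 6.59). The differences follow from the settings' own construction or their cause was not tested. No paired analysis was possible because the 2 samples form 1 group. Depth is unknown, and a site missing from the shorter list may be below its threshold.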
